A study of Mus musculus with 18 samples.

Results

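The Notch signaling components described here are 38 genes of ligands, receptors, processing enzymes, nuclear cofactors, modulators and Hes or Hey factors, taken by symbol from the deposited expression table of a mouse study of the transcription factor Ptf1a. Of these, 37 were among the 23228 gene symbols of the table. Neurl was not found under that symbol; its RefSeq name Neurl1a was listed at 2.99 FPKM in the sorted cells and 1.79 in pancreas and is not counted below. Expression was compared between 2 RNA sequencing samples of the ICR strain, with genotype given as WT in the labels. The neural tube sample was GFP-positive cells sorted from dissociated E12.5 neural tubes of 2.3Ptf1a-GFP embryos, where GFP is driven by a beta-globin basal promoter and the autoregulatory enhancer of Ptf1a, 2.3 kb long. The pancreas sample was whole, unsorted E15.5 pancreas. Each sample named 2 libraries but had 1 deposited value per gene, so there is no SD, no test and no replicate check anywhere below. In such bulk samples, fewer cells of a type and less RNA per cell cannot be told apart.

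Notch signaling passes between touching cells. A ligand of the Delta-like (Dll) or Jagged (Jag) family on one cell is pulled on by ubiquitin-driven endocytosis, which opens the Notch receptor of its neighbour to cleavage by an ADAM protease and then by γ-secretase. The freed intracellular domain joins the DNA-binding protein Rbpj and a Mastermind-like (Maml) coactivator and switches on repressors of the Hes and Hey families. In the neural tube this keeps progenitors from becoming neurons, and in the pancreas it holds back endocrine and acinar differentiation. Rbpj also joins Ptf1a in the PTF1 complex.

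Values are FPKM, fragments mapped to a gene, scaled to its transcript length and to the mapped fragments of the sample, so levels of different genes in a sample can be set side by side. A difference is log2(FPKM + 1) in neural tube minus that in pancreas, which shrinks differences between low values. "Higher" in a sample means a difference of 2 or more (4 times), provided the larger value reached 5 FPKM. "Similar" means that both values reached 5 FPKM with a ratio of at most 2. Both are rules of size.

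Both samples carried the genes of their label. The sorted cells had the higher call for 12 of 13 neural progenitor markers and for all 14 neuron markers found, so the sorted cells included progenitor and neuronal RNA. Of 15 pancreatic epithelium markers 12 were higher in pancreas. Endothelial markers summed to 31.4 FPKM in the sorted cells and 176.9 in pancreas, with 7 of 15 higher in pancreas. Mesenchyme and mural markers summed to 106.4 and 1335 FPKM, with 8 of 14 higher in pancreas. No endothelial or mesenchyme marker was at 0 in either sample.

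The ligands Dll1 and Dll3, the receptors Notch1 and Notch3, the corepressor gene Spen, the modulators Nrarp, Dtx1 and Dtx4 and the target Hes5 were at higher levels in the sorted neural tube cells, while the 6 listed cleavage genes had lower or nearly equal values there as deposited. Of the 37 genes, 9 (24.3%) were called higher in neural tube, where 4.76% of all 23228 genes and 10.3% of the 10744 genes with a value of at least 5 FPKM were. Psen2 was the 1 gene (2.70%) called higher in pancreas, against 5.50% of all genes and 11.9% of those at 5 FPKM. Another 9 genes were similar, of 20 at 5 FPKM or more in both samples, where 65.9% of the 7037 such genes of the table were similar. All 37 genes reached 1 FPKM in at least one sample. Their median difference was 0.72, and that of the 14303 genes of the table that reached 1 FPKM was -0.07. Ranks were taken among all genes at 1 FPKM or more in a sample, which leaves out 2 components in neural tube and 3 in pancreas. The median percentile of the remaining components was 72.0 within neural tube and 46.9 within pancreas. The plot of levels by role shows each pair of values.

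**Figure D1:**
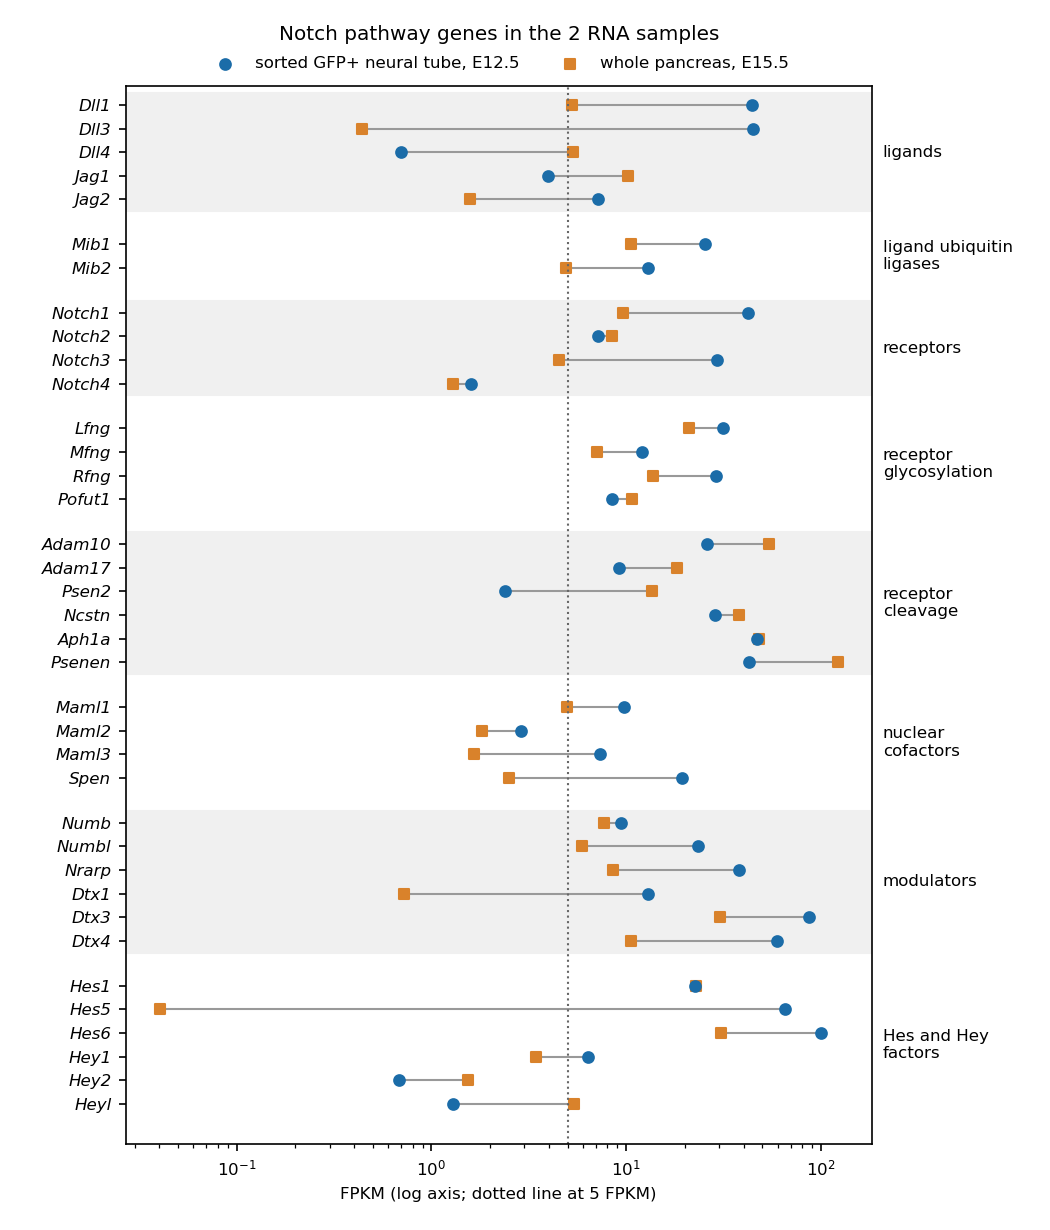
FPKM (log axis) of the 37 Notch components in sorted E12.5 neural tube cells (circles) and whole E15.5 pancreas (squares), grouped by role, with 1 pooled value per gene and sample. The gap is widest for Hes5, at 65.2 against 0.0404, and the 6 receptor cleavage genes have the pancreas value at or to the right of the neural tube value.

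The ligands differed in kind between the samples. Dll1, an activating ligand of neural progenitors (chromosome 17, 15504318 to 15513836, mm9), was at 44.3 FPKM in the sorted cells and 5.26 in pancreas, a difference of 2.85. Dll3, a Delta-like protein that acts within its own cell and does not activate Notch on neighbours (chromosome 7, 29076673 to 29087257), was at 44.5 FPKM and 0.441, a difference of 4.98. These 2 genes had almost the same level in the sorted cells, and Dll3 stood 11.9 times below Dll1 in pancreas. Jag2, a Jagged ligand, was at 7.17 FPKM in the sorted cells and 1.57 in pancreas, a difference of 1.67 that passed the rule only with a pseudocount of 0.1, a threshold of 2 times or equal totals.

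The other two ligands had their higher value in pancreas without passing the rule. Jag1, a ligand of duct and vessel development, was at 3.97 FPKM in the sorted cells and 10.2 in pancreas. Dll4, the main Delta-like ligand of endothelium, was at 0.699 FPKM and 5.33, a difference of -1.90, just short of the rule. Dll4 passed it only with a pseudocount of 0.1, where the difference was -2.765, or a threshold of 2 times. All 15 endothelial markers also had their higher value in pancreas, with a median difference of -1.98, including Pecam1 at 1.39 and 24.3 FPKM and Cdh5 at 2.24 and 19.8. Their part in the Dll4 value was not tested.

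Shares within a role do not depend on how a sample is scaled. Dll1 and Dll3 made up 44.0% and 44.2% of the summed ligand FPKM of the sorted cells, and Jag1 and Dll4 made up 3.95% and 0.695%. In pancreas the largest share was that of Jag1, at 44.8%, followed by Dll4 at 23.3% and Dll1 at 23.1%, while Dll3 had 1.93%. Jag2 had nearly the same share in both, 7.13% and 6.89%. The summed ligand level was 100.6 FPKM in the sorted cells and 22.8 in pancreas, a ratio of 4.41. Within the sorted cells Dll1 was thus 11.2 times the level of Jag1, and in pancreas 0.515 times.

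Of the ubiquitin ligases that act on ligands, Mib1, which is needed in the signal-sending cell, was at 25.3 FPKM in the sorted cells and 10.5 in pancreas. Its relative Mib2 was at 12.9 and 4.88 FPKM. Neither passed the rule, and the balance between them was alike in the 2 samples, with Mib1 at 66.2% and 68.3% of their sum.

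**Figure D2:**
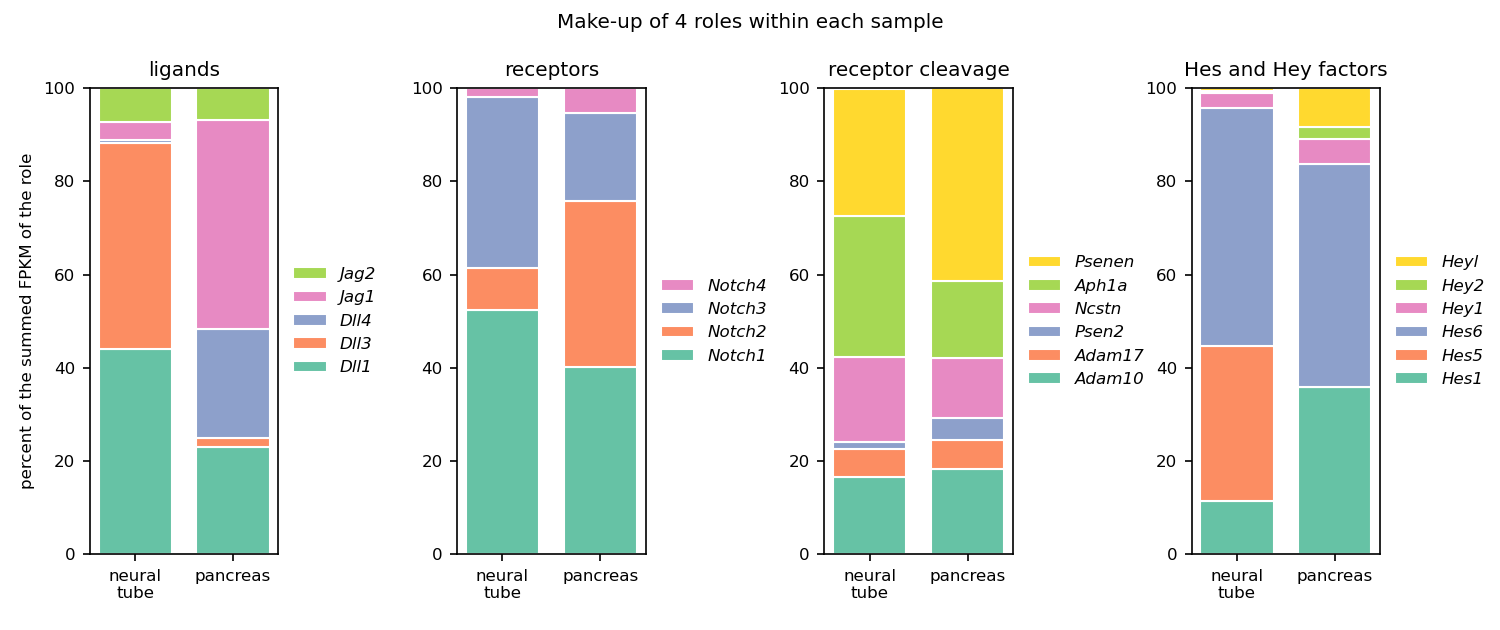
Each gene's percent of the summed FPKM of its role, for ligands, receptors, receptor cleavage genes and Hes and Hey factors, in the neural tube sample (left bar) and the pancreas sample (right bar). Dll1 and Dll3 fill most of the neural tube ligand bar and Jag1 44.8% of the pancreas bar, and Notch2 goes from 8.93% to 35.5% of the receptors.

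Receptors were led by Notch1 in both samples. Notch1, the receptor of most neural progenitors (chromosome 2, 26313423 to 26372183), was at 41.9 FPKM in the sorted cells and 9.59 in pancreas. Its difference of 2.02 lay just inside the rule, and it lost the call with median ratio scaling and with upper quartile scaling, where it was 1.96. Notch3, expressed in neural progenitors and in mural cells of vessels (chromosome 17, 32257765 to 32303825), was at 29.2 FPKM and 4.52, a difference of 2.45 that was 1.84 and lost the call with a pseudocount of 5. Mural markers had their higher value in pancreas: Rgs5 was at 0.321 FPKM in the sorted cells and 10.6 in pancreas and Pdgfrb at 3.19 and 14.3.

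Notch2, a receptor widely used in epithelia, had nearly equal levels of 7.12 FPKM in the sorted cells and 8.47 in pancreas. It was called similar, with a difference of -0.22 that turned to 0.32 with equal totals, and was positive also with housekeeping scaling and with equal totals without the most abundant genes. Notch4, the endothelial receptor, was low in both, at 1.59 and 1.29 FPKM. The make-up of the receptors therefore shifted. Notch1 had 52.5% of receptor FPKM in the sorted cells and 40.2% in pancreas, Notch3 had 36.6% and 18.9%, and Notch2 had 8.93% and 35.5%. In neural tube the level of Notch1 was 5.88 times that of Notch2, and in pancreas 1.13 times.

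Genes of receptor glycosylation had smaller differences. Pofut1, which adds O-fucose to Notch, was at 8.49 FPKM in the sorted cells and 10.7 in pancreas. The 3 Fringe genes, whose enzymes extend that fucose and change which ligands a receptor answers, were all expressed in both. Lfng was at 31.2 and 21.0 FPKM, Mfng at 11.98 and 7.06, and Rfng at 28.7 and 13.8. Lfng, Mfng and Pofut1 were called similar, and Rfng missed that call with a ratio of 2.08. Lfng held 38.8% of the FPKM of the 4 genes in neural tube and 40.0% in pancreas, the largest share in each.

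The listed cleavage genes went the other way. All 6 had a lower value in the sorted neural tube cells, with a median difference of -0.97, although Aph1a and Ncstn turned positive with equal totals, and Aph1a also with housekeeping scaling and equal totals without the most abundant genes. Psen2, a catalytic presenilin of γ-secretase (chromosome 1, 182157135 to 182193569), was at 2.38 FPKM in the sorted cells and 13.6 in pancreas, a difference of -2.11. This call was lost with housekeeping scaling and both equal totals settings, where the value was -1.53 at its weakest.

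The remaining γ-secretase subunits were abundant in both samples. Psenen, the smallest subunit, was at 42.6 FPKM in the sorted cells and 121.5 in pancreas, a difference of -1.49 below the rule, and was the most abundant of the 37 genes in pancreas. Aph1a, a scaffold subunit, was at 47.0 and 48.1 FPKM, and Ncstn, the substrate-receiving subunit nicastrin, at 28.6 and 37.9. Both were called similar under every alternative tried. Of the surface proteases that make the preceding cut, Adam10 was at 26.1 and 54.0 FPKM and Adam17 at 9.18 and 18.3. Aph1b, a further scaffold subunit outside the set, was at 6.20 and 1.82 FPKM, so the direction does not hold for every subunit. The ratio of Adam10 to Adam17 was 2.84 in neural tube and 2.96 in pancreas. Measured against the median difference of all genes, the median of the 6 cleavage genes stayed at or below -0.92 over the values as deposited and the 5 rescalings.

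**Figure D3:**
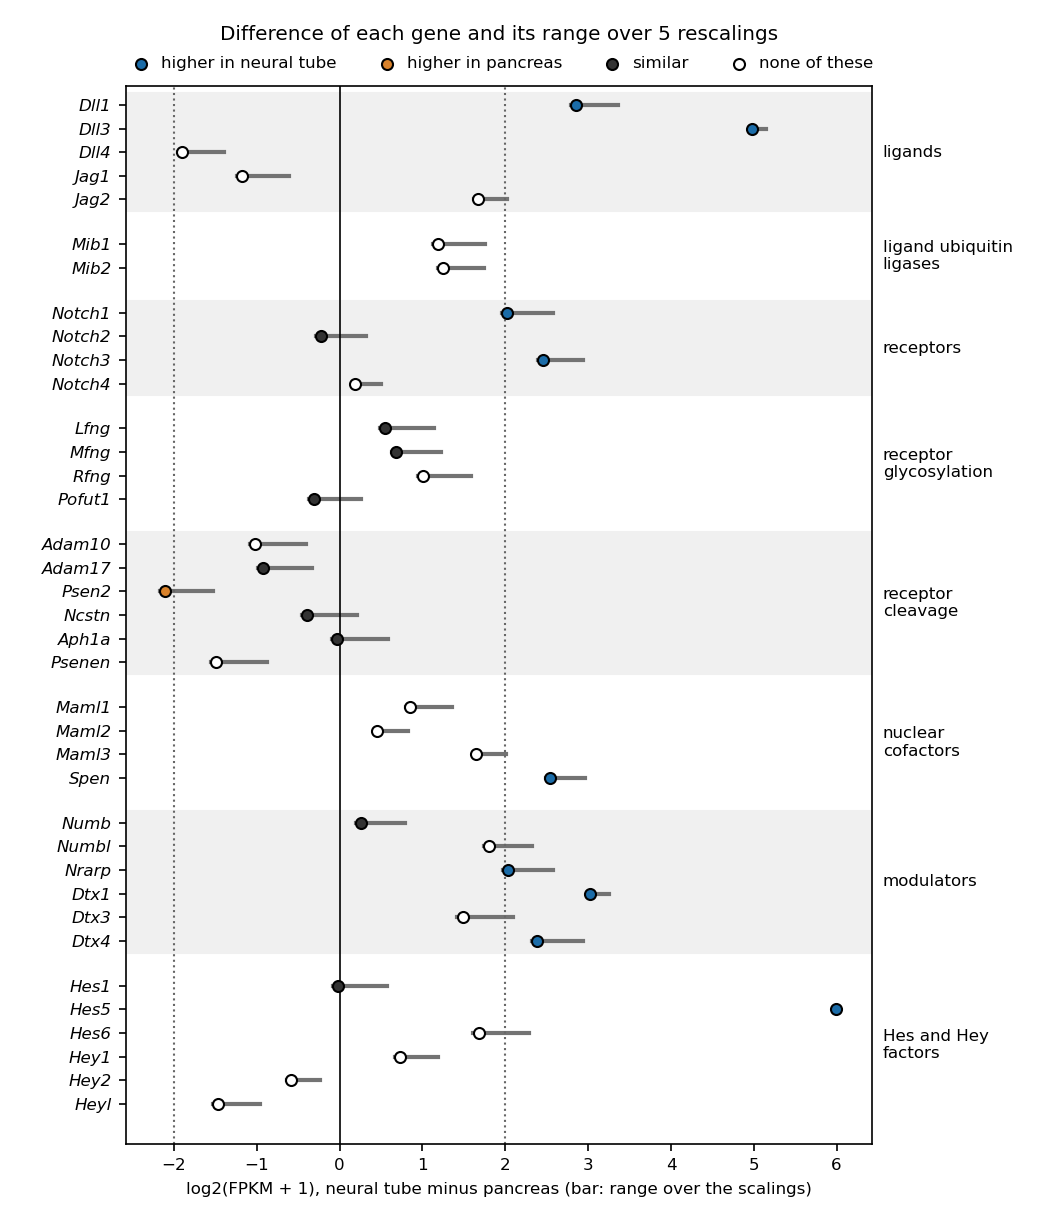
Difference of each Notch component, log2(FPKM + 1) in neural tube minus pancreas (points), with its range over the values as deposited and 5 rescalings of the pancreas sample (bars); dotted lines mark the rule of 2. Hes5 and Dll3 lie far to the right under every scaling, while Notch1, Nrarp, Psen2 and Dll4 lie next to a dotted line.

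Nuclear cofactors were all at higher values in neural tube. Spen, a large corepressor that Rbpj recruits when Notch is silent (chromosome 4, 141023805 to 141094512), had 19.3 FPKM in the sorted cells and 2.49 in pancreas, a difference of 2.54 that was 1.70 and lost the call with a pseudocount of 5. The coactivator Maml1 was at 9.73 and 4.94 FPKM, Maml2 at 2.86 and 1.82, and Maml3 at 7.35 and 1.66. Only Spen passed the rule. Spen held 49.2% of the summed FPKM of the 4 genes in the sorted cells and 22.8% in pancreas, where Maml1 had the largest share at 45.3%.

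The modulators were all at higher values in the sorted cells (median difference 1.92), and 3 of 6 passed the rule. Nrarp, a Notch target that promotes loss of the intracellular domain (chromosome 2, 25036278 to 25038850), was at 37.9 FPKM and 8.50, a difference of 2.03 that fell to 1.97 with upper quartile scaling and lost the call. Dtx1, a Deltex ubiquitin ligase that binds Notch (chromosome 5, 121130211 to 121161936), was at 13.0 FPKM and 0.720, a difference of 3.02 that was 1.65 and lost the call with a pseudocount of 5. Dtx4, another Deltex gene (chromosome 19, 12540831 to 12576486), was at 59.1 and 10.5 FPKM, a difference of 2.38. Dtx3 was the most abundant of the modulators in both, at 86.2 and 30.1 FPKM, and did not pass.

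Numb and Numbl, endocytic adaptors that antagonise Notch, were ordered differently in the 2 samples. Numb was similar at 9.40 FPKM in the sorted cells and 7.71 in pancreas. Numbl was at 23.3 and 5.95 FPKM, a difference of 1.80 just outside the rule. Numbl was 2.47 times the level of Numb in the sorted cells and 0.772 times in pancreas.

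Among the Hes and Hey factors, a group that includes classic targets of Notch, the 6 genes went both ways. Hes5, a Notch target of neural progenitors (chromosome 4, 154335032 to 154336480), reached 65.2 FPKM in neural tube, percentile 91.2 there, and at 0.0404 in pancreas, a difference of 5.99. The pancreas value is below the 0.0578 FPKM that about 3 fragments would give a transcript of this length, so no fold is stated. Hes1, a Notch target used in both tissues (chromosome 16, 30064470 to 30067882), was at 22.6 and 22.8 FPKM, a difference of -0.02 that reached 0.58 with equal totals. It was similar under every alternative tried. Hes5 was 2.89 times the level of Hes1 in the sorted cells, and Hes1 was the higher of the pair in pancreas.

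Hes6, a Hes relative that counteracts Hes1 and accompanies neuronal differentiation, was the most abundant of the 37 genes in neural tube at 99.7 FPKM and was at 30.4 in pancreas. Its difference of 1.68 passed the rule only with a threshold of 2 times or equal totals. It held the largest share of Hes and Hey FPKM in both samples, 50.9% and 47.8%. Next to it, Hes5 held 33.3% in neural tube and 0.0634% in pancreas, and Hes1 held 11.5% and 35.9%.

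The Hey genes were low. Hey1 was at 6.36 FPKM in the sorted cells and 3.45 in pancreas, and Hey2 at 0.684 and 1.53. Heyl, expressed in mural cells of vessels, was at 1.29 and 5.37 FPKM, a difference of -1.47. Mesenchyme and mural markers had their higher value in pancreas for 12 of 14 genes, with a median difference of -2.10, Twist1 and Fn1 being the exceptions. Acta2 was at 6.17 and 28.8 FPKM and Des at 4.31 and 22.6. Their part in the Heyl value was not tested.

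Because Rbpj is the DNA-binding effector of the pathway, promoters were searched for the letters of its core site, GTGGGAA, on both strands (TTCCCAC on the other). The windows were those of RefSeq, 250 bases before to 50 after each annotated start (GRCm38.p6), and 30 of the 38 genes had at least 1. Of the 30 genes, 6 held the letters: Hes5, Hey2, Lfng, Spen, Psen2 and Aph1a. Over all genes with a window 7.25% did, and over all windows 6.38%. The 250 bases before the start of Hes5, the gene with the widest difference, are shown because they hold the letters in 2 places, 226 and 83 bases before the start. The stretch was found unaltered in the mm9 genome at chr4:154334782-154335031, plus strand, and capitals mark the letters searched.
Hes5: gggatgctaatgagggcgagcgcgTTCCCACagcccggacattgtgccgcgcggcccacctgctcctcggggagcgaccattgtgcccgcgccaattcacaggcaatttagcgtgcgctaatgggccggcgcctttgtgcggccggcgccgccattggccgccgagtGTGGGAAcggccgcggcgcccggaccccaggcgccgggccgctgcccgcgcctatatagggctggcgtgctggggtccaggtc

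The other matches are shown with 10 bases on either side for comparison, 5′ to 3′ on the strand of the gene, with the searched letters in capitals and mm9 positions. Hey2 held them 207 and 4 bases before its start, Lfng at 109, Spen at 9, Aph1a at 4, and Psen2 at 89 bases before a start that lies inside the annotated span of the gene.
Hey2, chr10:30562780-30562806, minus strand: cgcggtggcaTTCCCACgcctctgcca
Hey2, chr10:30562577-30562603, minus strand: gggctgcagcGTGGGAAagaacctcca
Lfng, chr5:141083176-141083202, plus strand: cgtatcccacGTGGGAAggagagatct
Spen, chr4:141094505-141094531, minus strand: gcgcgcgccgGTGGGAAgcgtccggca
Aph1a, chr3:95697830-95697856, plus strand: ccttccggggGTGGGAAttagatggga
Psen2, chr1:182176154-182176180, minus strand: cacaggagacTTCCCACagatgtttat

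Holding the letters did not go with 1 direction of difference. Hes5 and Spen were called higher in neural tube, Psen2 higher in pancreas, Lfng and Aph1a similar, and Hey2 reached 5 FPKM in neither sample. Of the 9 genes called higher in neural tube, Dll1, Dll3, Notch1, Notch3, Nrarp and Dtx1 had no window with these letters, and Dtx4 was not matched. No match says only that the letters are not in this window. Hes1, Hey1 and Heyl were also not matched.

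Other genes of the pathway were read from a list of 44, of which 43 were in the table. Of these, 3 (6.98%) were called higher in neural tube, 2 (4.65%) higher in pancreas and 18 similar, with a median difference of 0.19. These shares lie near the 4.76% and 5.50% of all genes. Of the 43, 34 reached 5 FPKM in either sample, and among all genes that did, 10.3% and 11.9% were called. The 18 were of 26 at 5 FPKM or more in both, where 65.9% of such genes were similar. Rbpj was among the similar genes, at 27.1 FPKM in the sorted cells and 14.0 in pancreas. Those higher in neural tube were Dner, a neuronal EGF-repeat protein described as a Notch ligand, at 90.4 FPKM against 0.434, and the Groucho-type corepressor genes Tle3, at 46.3 against 8.18, and Tle4, at 14.6 against 2.07. Those higher in pancreas were Dlk1, a Delta-like protein without the domain that activates Notch, at 22.5 FPKM in neural tube against 154.3, and Tle6, a short Groucho relative, at 0.327 against 36.5. The 5 Tle genes listed therefore went both ways, with Tle1 at 18.3 and 8.30 FPKM and Tle2 at 5.06 and 10.2.

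The co-regulators that many pathways share were closer to equal. The corepressor Ctbp1 was at 204.3 FPKM in the sorted cells and 51.6 in pancreas, a difference of 1.96 just outside the rule, and Ctbp2 at 48.5 and 28.4. The acetyltransferases Crebbp, at 17.2 and 4.12 FPKM, and Ep300, at 20.3 and 6.27, did not pass. Hdac1 and Hdac2, deacetylases of corepressor complexes, were similar, at 53.6 and 77.7 FPKM and at 114.2 and 90.6. Hes3 was at 1.24 and 0.0256 FPKM, and Hes2 was at 0.0374 and 0.0335, close to the level of 3 fragments in both.

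**Figure D4:**
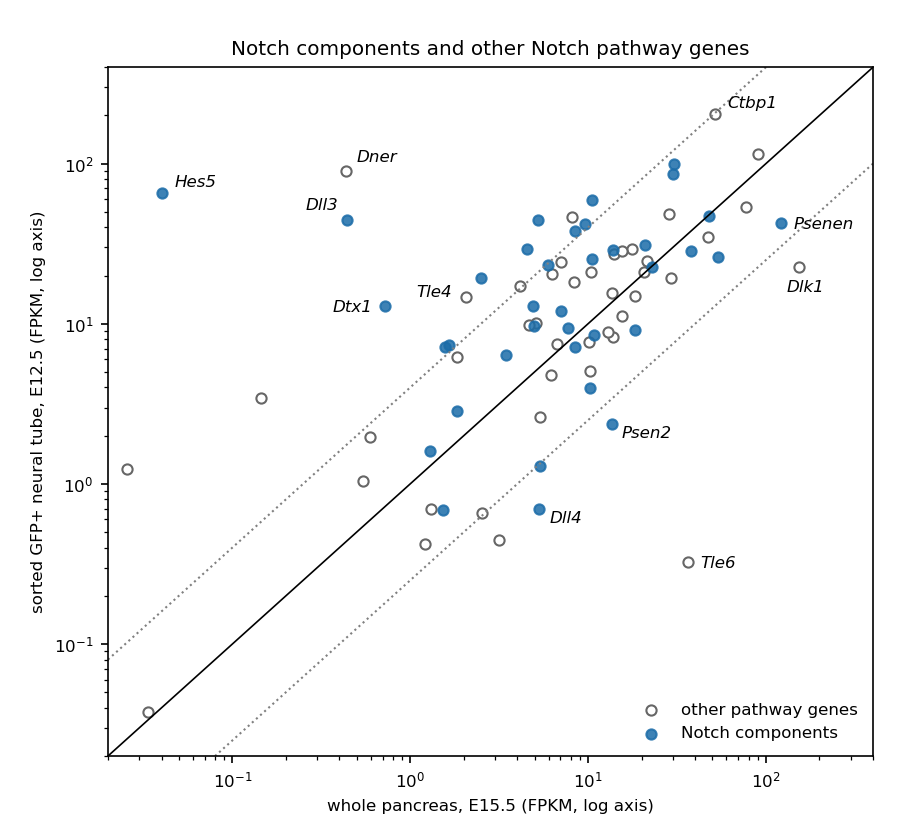
FPKM in neural tube (vertical) and in pancreas (horizontal), both on log axes, for the 37 Notch components (filled) and 43 other pathway genes (open); the solid line marks equal values and dotted lines a ratio of 4. Dner and Dll3 lie far above the lines, Tle6 and Dlk1 below them.

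The calls depend on how the 2 samples are put on 1 scale. Over all genes 46.4% of calls were toward neural tube as deposited, 67.0% with equal totals, 56.1% with housekeeping scaling and 58.1% with equal totals with the most abundant genes left out first, and the median difference of genes at 1 FPKM or more in both moved from 0.02 to 0.55, 0.26 and 0.30. All 9 components called higher in neural tube kept the call there. Those 3 settings multiply pancreas by 0.6475, 0.8253 and 0.7948, which raises every difference, so they could not end such a call. Median ratio and upper quartile scaling multiply pancreas by 1.019 and 1.047. Notch1 lost the call under both, and Nrarp under upper quartile scaling. Relative to that median, the components' own median stayed between 0.66 and 0.71 over the values as deposited and the 5 rescalings.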

How the data were processed

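Values were FPKM as the authors deposited them, 1 per gene and tissue. Per the submitters' processing notes, CASAVA, TopHat, TopHat2 2.0.4, Cuffdiff 2.0.2 and the build mm9 were named with no role or order. For the annotation and filters, the entry is: not given in the sources used here. As for preparation, per the labels' protocols, a column kit was used for RNA of sorted cells and Trizol for pancreas, and library kits may have differed, so tissue, stage, sorting and preparation cannot be told apart. The other 16 of 18 samples (chromatin immunoprecipitation, input and FAIRE) are not analysed here.

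Differences used a pseudocount of 1 FPKM and were computed with Python 3.11.15, numpy 2.4.6 and pandas 2.3.3. Every component found was named, as were Rbpj and the other pathway genes past the rule, and the rest of those named were chosen after their values were seen. The components and lists were chosen with earlier results of these data known. The calling rule was run on simulated data with changes well past its threshold in well expressed genes only. That run cannot show how the rule behaves near the threshold or at low FPKM. Coordinates come from GENCODE M1, whose assembly NCBIM37 equals mm9 and in which 93.3% of symbols matched a single gene. The level of 1 fragment was taken as the commonest small product of FPKM and transcript length, about 0.0407 FPKM in neural tube and 0.0245 in pancreas for 1 kb, and is approximate, so no counting interval is given. Alternatives were pseudocounts of 0.1 and 5, no minimum or 10 FPKM, thresholds of 2 and 8 times, and 5 rescalings of pancreas: to the median ratio, the upper quartile, 22 housekeeping genes, equal totals, and equal totals without acinar enzymes and the 50 highest genes of each sample.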

Additional observations from a re-analysis of the deposited data

How the results depend on the processing

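With 1 value per gene and sample, depth and scaling limit these results and no error can be set on any difference. As reported, the components numbered 9 toward neural tube, 1 toward pancreas and 9 similar. The count higher in neural tube was 4 with a pseudocount of 5 and 3 with a threshold of 8 times, against 17 at 2 times and 14 with equal totals. The share of all genes called toward neural tube moved with these settings too, from 4.76% to 2.20%, 2.35%, 10.7% and 7.03%. With a pseudocount of 5 the call ended for Notch1, Notch3, Spen, Nrarp and Dtx1. The count higher in pancreas was 2 with a pseudocount of 0.1 and 6 at 2 times. It was 0 with a pseudocount of 5, at 8 times, and with housekeeping scaling, equal totals and equal totals without the most abundant genes. Similar genes numbered 4 with a minimum of 10 FPKM, which leaves fewer genes to call. Among the other pathway genes, the 3 higher in neural tube became 1 with a pseudocount of 5 or at 8 times, 9 at 2 times, 5 with housekeeping scaling, 7 with equal totals and 5 without the most abundant genes, and the 2 higher in pancreas became 1 at 8 times. The ligand median of 1.67 was 0.89 with a pseudocount of 5, and the cleavage median of -0.97 was -0.37 with equal totals. Ranked instead among all genes above 0, the same components at 1 FPKM or more had a median percentile of 81.4 in neural tube. In pancreas it was 65.7. Dll3 and Hes5 kept their call under all 11 alternatives, and no called gene changed direction. Leaving genes under 1 FPKM in both samples out of the sums changed none of the 16 largest shares, since no component was that low in both. The letters TGGGAA were found in promoters of 9 of 30 genes, against 28.3% of all genes with a window. No paired analysis was possible because the table holds 1 value per tissue with no replicate number.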
